A study of Rattus norvegicus with 18 samples.

Results

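Rat hippocampal neurons carrying the MEF2-VP16-ER virus were compared with neurons carrying its control virus before any ligand was given, on 6 of the 18 Affymetrix arrays of the series. Both groups were dissociated hippocampal neurons kept for 10 days in vitro and infected with a lentivirus on day 3. The 3 MEF2-VP16-ER arrays came from cells given the active fusion and harvested at 0 h of 4-hydroxytamoxifen (4OHT). The 3 Control arrays came from cells given MEF2deltaDBD-VP16-ER, the same fusion without its DNA-binding domain, also at 0 h. The other 12 arrays held both constructs after 1 h and 2.5 h of 4OHT, 3 biological replicates each, and are used here to say which genes responded to the ligand. The sources used here do not give the rat strain, the number of animals behind a replicate, the promoter in the virus or the share of cells infected. The members are all 31042 probe sets that are not Affymetrix controls, and arrays were paired by replicate number.

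MEF2 proteins are transcription factors that bind an A/T-rich site and, in neurons, switch on genes when calcium enters with synaptic activity. VP16 is a strong viral activation domain, and the hormone-binding domain of the estrogen receptor keeps a fused protein inactive until a ligand such as 4OHT binds it. Any construct difference at 0 h therefore precedes ligand, and the comparison asks how far the fusion leaks and how far the cultures themselves differ. With these arrays a leak and a difference between 2 sets of infected cultures cannot be told apart.

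Values are the deposited intensities, and a difference is MEF2-VP16-ER minus Control on the scale log2(intensity + 16), which understates the change of dim genes. The upper quartile of intensity was 706, 715 and 706 on the MEF2-VP16-ER arrays, against 687, 684 and 669 on the Control arrays. All 12 general neuron markers were brighter than the median of the arrays, as were 11 of 13 astrocyte markers, 6 of 18 microglia markers and 2 of 13 endothelial and mural markers, so neuron markers were present beside those of astrocytes. A gene is called only where limma's p, adjusted by Benjamini-Hochberg over all 31042 probe sets, was under 0.05, and 3 arrays a group limited the precision: the median SE was 0.07 log2 units.

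Before ligand the constructs differed little. The differences ran between -0.54 and 0.73 log2 units over all probe sets, 0 of them reached 1 log2 unit, and 23 passed 0.5, of which 21 were positive. Of all probe sets 53.9% were above 0, and of 14217 genes, each by its brightest probe set as in the gene lists, 60.3%. Limma called 1 probe set (0.00322% of those tested), a probe set of Kitlg, which was higher with MEF2-VP16-ER. Without adjustment 2426 probe sets were higher at p under 0.05 (7.82%) and 2085 lower (6.72%), and 0 of the lower ones were called. Of the 14217 genes by their brightest probe set, 1309 were higher and 769 lower at that p. The 3 arrays of each group did not overlap in 5410 probe sets (17.4%), of which 2501 were higher (8.06% of all) and 2909 lower (9.37%). With ligand the same fit called 79 probe sets at 1 h (0.254%; 59 higher, 0.19%, and 20 lower, 0.0644%) and 1083 at 2.5 h (3.49%; 764 higher, 2.46%, and 319 lower, 1.03%).

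Kitlg encodes stem cell factor, the ligand of the KIT receptor tyrosine kinase. Its intensity was 2196, 1868 and 1998 in MEF2-VP16-ER neurons of replicates 1 to 3, against 1686, 1458 and 1431 in Control neurons. Every MEF2-VP16-ER array was above every Control array, and the pairs differed by 0.38, 0.35 and 0.48. The mean difference was 0.40 ± 0.046 log2 units (fold 1.32, limma adjusted p = 0.00887). Here and below, ± on a log2 difference is limma's SE from the fit of all arrays, not the spread of the 3 pairs. With 4OHT the same probe set was higher by 0.33 at 1 h (adjusted p = 0.00315) and by 0.89 at 2.5 h (adjusted p = 2.39e-08), so the largest of the 3 differences came with 2.5 h of ligand. The other 3 Kitlg probe sets, all dimmer, were at 0.58, 0.19 and -0.034 before ligand, and limma called none of them (unadjusted p = 0.0179, 0.129 and 0.485). The call rests on the pairing by replicate number: without it limma's adjusted p was 0.428. It was also lost without 1 array, MEF2-VP16-ER replicate 2 (adjusted p = 0.0669) or replicate 3 (0.131) or Control replicate 1 (0.113) or replicate 3 (0.122), with the difference between 0.37 and 0.43 in these and the other fits without 1 array.

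The promoters of Kitlg and Mef2a are shown because Kitlg was the 1 gene called before ligand and Mef2a the 1 gene, of 52 with a promoter that rose under ligand (below), with a match to the MEF2 consensus there. They come from RefSeq (GRCr8) and run 5′ to 3′ on the gene's strand, 250 bases before to 50 after its start. Kitlg lies at chr7:36782410-36782709 on the plus strand, and Mef2a at chr1:130392113-130392412 on the minus strand. Capitals mark the match to the MEF2 consensus, which begins 40 bases before the Mef2a start.
Kitlg promoter: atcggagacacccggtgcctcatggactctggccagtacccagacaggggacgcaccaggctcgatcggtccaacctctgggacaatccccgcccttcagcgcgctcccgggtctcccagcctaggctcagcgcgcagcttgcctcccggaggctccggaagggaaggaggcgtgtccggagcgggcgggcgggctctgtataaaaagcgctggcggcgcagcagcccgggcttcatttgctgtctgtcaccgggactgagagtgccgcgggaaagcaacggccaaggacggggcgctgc
Mef2a promoter: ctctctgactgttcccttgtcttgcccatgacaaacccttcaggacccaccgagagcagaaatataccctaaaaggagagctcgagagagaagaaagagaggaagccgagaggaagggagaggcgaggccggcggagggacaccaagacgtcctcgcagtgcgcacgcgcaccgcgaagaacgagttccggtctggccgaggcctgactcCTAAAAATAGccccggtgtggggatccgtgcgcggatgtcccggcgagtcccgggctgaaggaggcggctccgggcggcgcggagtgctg

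No MEF2 consensus letters, on either strand, lie in this window of Kitlg, which says nothing of sites elsewhere. Of 11700 measured genes with a promoter in the table, 200 held a match (1.71%). Among genes with unadjusted p under 0.05 at 0 h the share was 22 of 1445 for those higher (1.52%) and 19 of 815 for those lower (2.33%). Among genes risen under ligand it was 1 of 52 (1.92%), and among those called higher at 2.5 h 14 of 383 (3.66%). The CArG box, the site of SRF, was in 14 of 1445 promoters of the higher genes (0.969%) and 15 of 815 of the lower ones (1.84%), against 158 of all (1.35%). The CRE, with the letters TGACGTCA, was in 50 of 1445 (3.46%) and 12 of 815 (1.47%), against 334 of all (2.86%). A match is only a description of the letters.

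After Kitlg, the genes with the smallest p among those positive in every pair did not pass over all probe sets. Rapgef4, an exchange factor for Rap proteins that cAMP activates, had intensities of 1171, 1250.2 and 1084 in MEF2-VP16-ER neurons, against 984, 984 and 838 in Control neurons (0.32 ± 0.047, limma adjusted p = 0.0706). Adcy8, an adenylyl cyclase that calcium and calmodulin stimulate, had 387, 352 and 336, against 255, 218 and 166 in Control neurons. The groups of both genes did not overlap. Adcy8 had the largest difference of all probe sets, 0.73 ± 0.11 (limma adjusted p = 0.0771; pairs 0.58, 0.66 and 0.95), and it was called at 2.5 h of 4OHT (1.36, adjusted p = 2.44e-06) but not at 1 h (0.51, adjusted p = 0.0981). Adcy8 was called at 0 h in 3 alternative fits and Rapgef4 in 2.

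Robo2, a receptor for the axon guidance cues called Slits, had 942, 871 and 781 in MEF2-VP16-ER neurons, against 617, 729.8 and 517 in Control neurons, again without overlap. The difference was 0.48 ± 0.076 (limma adjusted p = 0.0892), and the other 2 probe sets of Robo2 were at 0.19 and 0.23. At 1 h the first probe set was at 0.16 and not called (limma adjusted p = 0.897). At 2.5 h it was at 0.47 and called (adjusted p = 0.00147). At 0 h it was called without Control replicate 2 (0.60, limma adjusted p = 0.00318). Cbln1, a secreted organizer of synapses, was at 0.37, Tafa2, a small secreted protein, at 0.41, the zinc transporter gene Slc39a6 at 0.32, Ttc28 at 0.35, the RNA-binding protein gene Rbm24 at 0.36 and Klhdc8b at 0.40 (limma adjusted p = 0.0892 to 0.131). The probe sets of Rbm24 pointed both ways, with another at -0.38. The other 3 probe sets of Ttc28 were between -0.040 and 0.14. Of these 6 genes, limma called Klhdc8b at 2.5 h (0.36, adjusted p = 0.0161) and, through another probe set that was at 0.30 before ligand, Tafa2 (0.34, adjusted p = 0.00704). At 1 h these 2 probe sets were at 0.20 and 0.15, and limma called neither (adjusted p = 0.740 and 0.879).

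On the lower side Cbln2, a relative of Cbln1 that also bridges synapses, had the largest difference. Its intensity was 529, 459.6 and 386 in MEF2-VP16-ER neurons, against 813, 663 and 559.6 in Control neurons, and the groups did not overlap. That is -0.54 ± 0.081 (limma adjusted p = 0.0706), and the other Cbln2 probe set was at -0.42 (adjusted p = 0.160). At 2.5 h of 4OHT the first probe set was called lower (-0.36, adjusted p = 0.0191), while the 1 h difference was -0.38 (adjusted p = 0.0945).

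Dcn encodes decorin, a proteoglycan of the extracellular matrix made by fibroblast-like cells. It had 627, 669 and 366 in MEF2-VP16-ER neurons, against 871, 924 and 530.2 in Control neurons, so the groups overlapped, with replicate 3 low for both constructs, while every pair was negative (-0.46, -0.46 and -0.51). It was at -0.48 ± 0.090 (limma adjusted p = 0.131) before ligand and was called lower at 1 h (-0.57, adjusted p = 0.0098) and at 2.5 h (-0.58, adjusted p = 0.00106), so its difference had much the same size at each time. The summed level of the 16 fibroblast and meningeal markers, of which Dcn is 1, ran between 12945 and 14947 with MEF2-VP16-ER and between 13834 and 15128 with Control, and their median difference was -0.041. The part of such cells in the Dcn result was not tested.

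The other negative genes by p were RGD1562890 (-0.38), the Golgi mannosidase gene Man1a2 (-0.35), the trypsin inhibitor gene Spink1 (-0.30), Fcrl2 (-0.26), Lce3b (-0.30), Znrd1as1 (-0.24), the endosomal syntaxin gene Stx12 (-0.29) and Prkag2 (-0.38), a subunit of the energy sensor AMPK. Limma's adjusted p was 0.0892 to 0.131, and none of these 8 was called at 1 h or 2.5 h. Other probe sets of some of these genes did not share the sign or the size. The brighter probe set of Stx12 was higher in every pair (0.15, limma unadjusted p = 0.0274), the other 3 of Prkag2, all brighter than the 1 given, were at 0.028 to 0.080, and the other 1 of Man1a2 was at 0.0017. Znrd1as1 is an antisense gene, and whether its probes tell the strands apart was not examined.

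**Figure D1:**
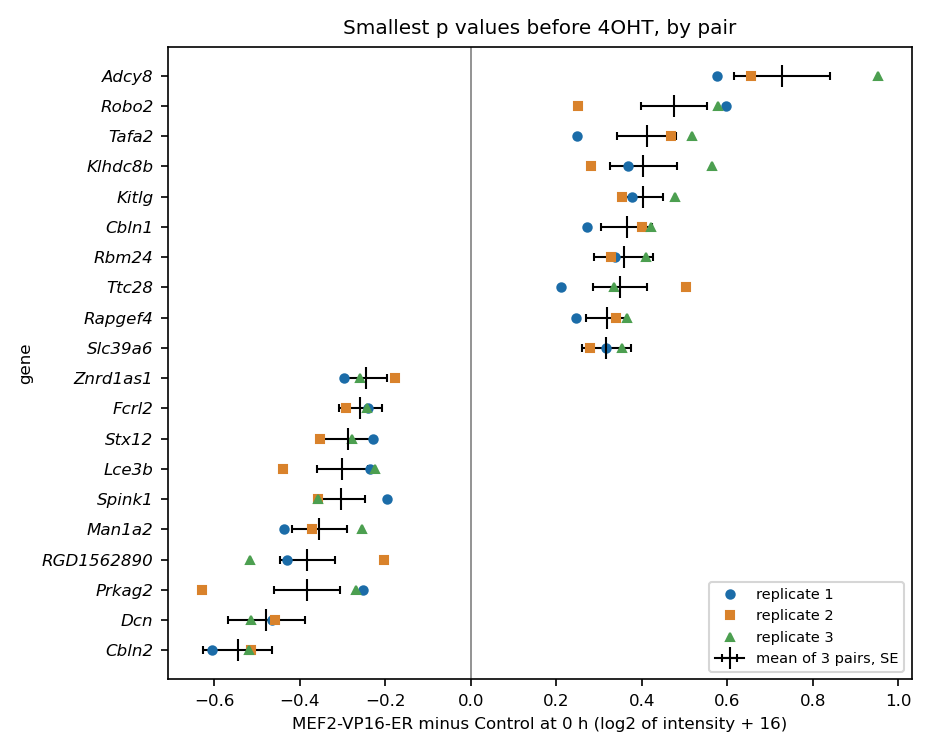
MEF2-VP16-ER minus Control at 0 h on the log2(intensity + 16) scale (x axis). Rows (y axis) are the 10 positive and 10 negative genes with the smallest p. Points are the 3 pairs and the upright mark is their mean. The bar is limma's SE from the fit of all arrays, not the spread of the 3 pairs. All pairs of a gene lie on 1 side of 0, which the choice of genes required; the pairs of Kitlg lie between 0.35 and 0.48, and Adcy8 has the largest mean (0.73).

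Genes that respond to the ligand-activated fusion were taken as those whose MEF2-VP16-ER value changed between 1 h and 2.5 h beyond the change in Control. The 0 h arrays do not enter that change, but they do enter the spread it was tested against, since all arrays share 1 fit, and so they bear on which probe sets passed. Of all probe sets, 104 rose in this sense (0.335%), naming 65 genes, and 20 fell (0.0644%), naming 11. Before ligand 85 of the 104 risen probe sets were above 0, with a median of 0.082, beside 0.010 over all probe sets. At unadjusted p under 0.05, 31 of the 104 were higher (29.8%) and 0 lower, against 7.82% and 6.72% of all probe sets, and limma called 1, Kitlg. The median was 0.11, 0.084 and 0.13 in the 3 pairs. When the choice was made from the 12 arrays with ligand alone, 39 probe sets rose (0.126%), all of them among the 104. In a limma fit of the 6 arrays at 0 h alone their median was 0.068, 33 were above 0, and 11 were higher (28.2%) and 0 lower at unadjusted p under 0.05, where 11.1% of all probe sets were higher and 7.05% lower. The 20 fallen probe sets had a median of 0.032, with 2 higher and 1 lower at unadjusted p under 0.05.

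The risen probe sets were also brighter than most, with a median level of 9.48 log2 units beside 7.72, and brighter probe sets were shifted up at 0 h (below). Where only probe sets above the median level were fitted, the median before ligand was 0.080 for the 96 risen ones and 0.061 for all. At unadjusted p under 0.05, 30.2% of the risen and 11.6% of all were then higher. After quantile normalization the median was 0.058 for 79 risen probe sets and -0.0019 over all. Of these 79, 19 were higher (24.1%) and 1 lower at that p, against 4.66% and 6.10% of all probe sets. Without Control replicate 2 the median of the risen ones was 0.127. Without MEF2-VP16-ER replicate 2, 19 of 85 risen probe sets were higher (22.4%) and 3 lower, against 4.42% and 4.55% of all. Without Control replicate 3, 18 of 84 were higher (21.4%) and 0 lower, against 3.79% and 3.56% of all.

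The 10 genes with the largest rise between 1 h and 2.5 h, each by its probe set with the smallest p for that rise, were between -0.079 and 0.29 before ligand. Col10a1, the collagen of growing cartilage, had intensities of 62.7, 64.4 and 63 in MEF2-VP16-ER neurons, against 67, 65.7 and 55.2 in Control neurons, and was at 0.017 ± 0.16 before ligand beside 2.41 at 2.5 h. Hs3st1, a sulfotransferase that modifies heparan sulfate, had 504, 502 and 502, against 490.0, 465 and 509 in Control neurons, and was at 0.042 ± 0.10 beside 2.44. The groups overlapped for both genes. Of the other genes with the largest rise, Pwwp3b was at 0.12, the tyrosine phosphatase gene Ptpn21 at -0.079, the fibrinogen-related gene Fgl2 at 0.017, the mannosidase gene Man1a1 at -0.017 and the actin-binding protein gene Synpo2 at -0.046 (limma unadjusted p = 0.282 to 0.886). Mitf, a transcription factor of pigment cells, was at 0.23 (limma unadjusted p = 0.0379), the opsin gene Opn3 at 0.25 (limma unadjusted p = 0.17) and the small heat shock protein gene Hspb1 at 0.29 (limma unadjusted p = 0.0511). These 10 probe sets were at 1.21 to 2.44 at 2.5 h. Another probe set of Fgl2 had the largest rise of all (1.86), and it was at 0.13 before ligand and 2.86 at 2.5 h. The other probe set of Mitf was at -0.070 before ligand and negative in every pair.

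Other genes risen between 1 h and 2.5 h, chosen here after their values were seen for their small p at 0 h, were positive in every pair. Besides Kitlg and Adcy8 they were the protein phosphatase gene Ppm1l (0.30 ± 0.059), the Rap exchange factor gene Rapgef5 (0.36 ± 0.073), Ptprr (0.25 ± 0.051), whose phosphatase acts on MAP kinases, and the neuropeptide Y receptor gene Npy1r (0.39 ± 0.10). Limma's adjusted p was 0.131 to 0.164, so none was called before ligand. Npy1r averaged 828 ± 195 with MEF2-VP16-ER and 631 ± 159.8 with Control (SD, n = 3 each), and the groups overlapped. At 1 h the difference was 0.45 for Rapgef5, 0.67 for Npy1r, 0.067 for Ppm1l and -0.059 for Ptprr. At 2.5 h it was 1.25 for Rapgef5, 1.36 for Npy1r, 0.52 for Ppm1l and 0.30 for Ptprr. That of Ptprr at 2.5 h was therefore close to its value before ligand, and its rise was from a lower value at 1 h. Ppm1l was also lower at 1 h than before ligand, while Rapgef5 at 2.5 h was far above its value before ligand.

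**Figure D2:**
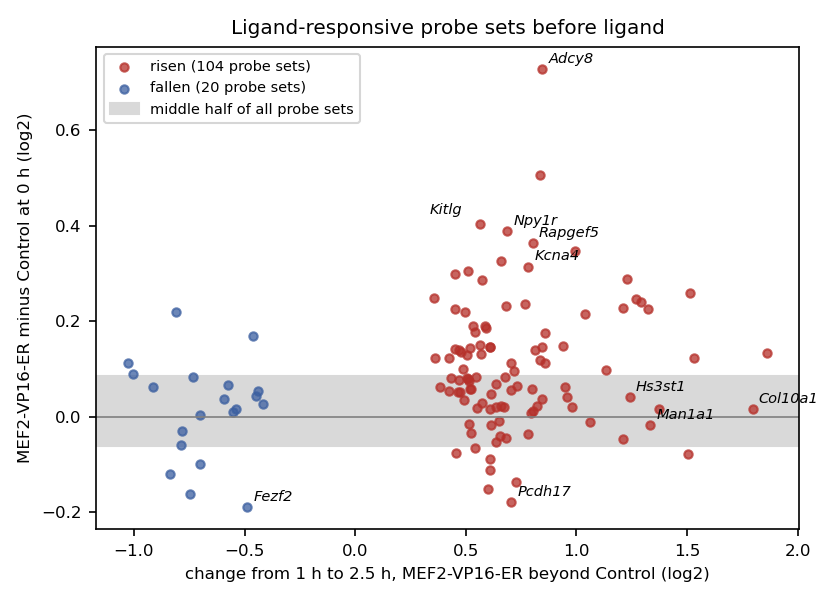
MEF2-VP16-ER minus Control at 0 h (y axis, log2 units) against the change from 1 h to 2.5 h beyond Control (x axis, log2 units) for the 104 risen and 20 fallen probe sets; the grey band spans the lower to the upper quartile of all probe sets (-0.06 to 0.09). Most risen probe sets lie above 0 at 0 h, Adcy8 (0.73) and Kitlg (0.40) among the highest, while Col10a1 (0.017) and Hs3st1 (0.042) lie near 0 although they rose by 1.80 and 1.24.

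The MEF2 genes and the estrogen receptor gene bear on the constructs themselves, although whether any probe detects them was not examined. Mef2a had 2074, 1687 and 1503 in MEF2-VP16-ER neurons, against 1715, 1660.0 and 1411 in Control neurons, and its 4 probe sets were between 0.0031 and 0.17. Mef2c was at -0.025 ± 0.065 and Mef2d at -0.10 ± 0.062. Esr1, which encodes an estrogen receptor, had 353, 291 and 359, against 299.7, 228 and 359 in Control neurons (0.19 ± 0.10, limma adjusted p = 0.392), and replicate 3 was nearly equal in both. Class IIa histone deacetylases repress MEF2, and among 7 measured genes of both families 3 were above 0, limma called 0, and 1 was higher at unadjusted p under 0.05. That was Hdac5, with 1300.1, 1349 and 1276 in MEF2-VP16-ER neurons, against 1048, 1068 and 902 in Control neurons and no overlap (0.38, limma adjusted p = 0.181). Among 39 muscle genes known as MEF2 targets 17 were above 0, with a median of -0.025 (0.0062 after cyclic loess). Limma called 0 of them, and 3 were higher and 3 lower at unadjusted p under 0.05. The myosin gene Myh1 was at 0.36, the troponin gene Tnnt2 at 0.19, the natriuretic peptide gene Nppa at -0.23 and the muscle regulator gene Myog at -0.20.

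Genes that neurons switch on with activity are known MEF2 targets in part. Of 25 measured immediate early factors 20 were above 0 (median 0.090; 0.086, -0.030 and 0.20 in the pairs), limma called 0, and 2 were higher at unadjusted p under 0.05. The nuclear receptor gene Nr4a3 had 7039.9, 7169 and 6107 in MEF2-VP16-ER neurons, against 5765, 6067 and 5582 in Control neurons, without overlap (0.22, limma adjusted p = 0.16). Egr1 was at 0.32, with pairs of 0.18, -0.031 and 0.81, and Nr4a1 at 0.11 ± 0.11. Bdnf, a neurotrophin gene, had 879, 721 and 442, against 624, 697 and 301 in Control neurons (0.35 ± 0.12, limma adjusted p = 0.24), while its other probe set was at -0.083. Arc (-0.032), Homer1 (0.10), Rgs2 (0.15) and Bambi (-0.027), the last 2 strongly induced by ligand (2.22 and 1.72 at 2.5 h), had unadjusted p = 0.106 to 0.788 by limma before it. Of 28 activity-regulated effector genes 19 were above 0 (median 0.039), 0 were called by limma, and 3 were higher and 2 lower at unadjusted p under 0.05.

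The sign of the 0 h difference followed the brightness of the probe set. Probe sets were put in 10 equal groups by mean level. In the brightest group the median was 0.066, 0.086 and 0.085 in the 3 pairs, and in the fourth group from the dim end it was -0.020, -0.030 and -0.064. In the brightest group 526 of 3105 were higher and 18 lower at unadjusted p under 0.05, while in the dimmest 14 were higher and 183 lower. At 1 h the brightest group was at 0.019, -0.057 and -0.038, and at 2.5 h at 0.023, 0.12 and 0.043, so that at 2.5 h pair 2 showed the 0 h pattern most. The ratio of 3′ to 5′ probe sets for actin, a sign of RNA integrity, was 2.25, 2.35 and 1.88 in MEF2-VP16-ER neurons, against 2.47, 2.51 and 2.08 in Control neurons. That for GAPDH was 1.06, 1.07 and 1.02, against 1.11, 1.10 and 1.07 in Control neurons. Both were lower with MEF2-VP16-ER in every pair, and their part in the 0 h differences was not tested.

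**Figure D3:**
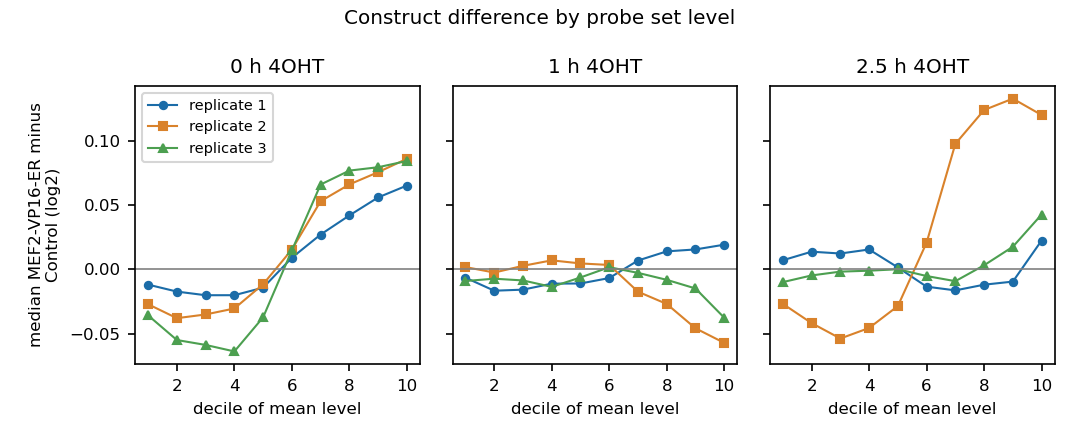
Median MEF2-VP16-ER minus Control (y axis, log2 units) of probe sets in 10 equal groups by mean level, dim to bright (x axis), in each pair at 0 h, 1 h and 2.5 h of 4OHT. At 0 h all 3 pairs are negative at the dim end and positive at the bright end (0.066 to 0.086), while at 1 h pairs 2 and 3 are negative at the bright end and pair 1 has the 0 h signs at a smaller size (0.019 at the bright end).

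Markers of the cell types in the cultures differed by small amounts, and limma called 0 of them. The 12 general neuron markers had a median of 0.084, 7 were above 0, and 2 were higher at unadjusted p under 0.05: Uchl1, a neuronal ubiquitin hydrolase (0.17), and Snap25, a protein of vesicle fusion (0.11). These are among the brightest probe sets, and the median was 0.012 after quantile normalization and -0.0035 after cyclic loess. Of 10 excitatory neuron markers 6 were above 0 (median 0.025, but -0.040 after quantile normalization), and the kinase gene Camk2a had 957, 1039 and 898 in MEF2-VP16-ER neurons, against 1168, 1427 and 1025 in Control neurons (-0.31, limma adjusted p = 0.297). Of 13 astrocyte markers 5 were above 0 (median -0.045), and of 14 interneuron markers 5 (median -0.015).

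Microglia markers had the lowest median of the 28 lists, but some other marker lists were also negative. Of 13 endothelial and mural markers 2 were above 0 (median -0.063). Of 7 choroid and ependymal markers 2 were (median -0.091), with pair medians of -0.062, -0.030 and -0.18. The median of 11 oligodendrocyte-lineage markers was 0.020. Of 18 microglia markers measured, 1 was above 0 and 7 were lower at unadjusted p under 0.05, where 6.72% of all probe sets were. By their brightest probe set, 769 of 14217 genes were lower. The median level of the markers was 7.15 log2 units, within the brightness group of 7.12 to 7.72, where 364 of 3104 probe sets were lower. The median difference of the 18 markers was -0.12, with pair medians of -0.14, -0.18 and -0.10. C1qc, a subunit of complement C1q, had 129, 103 and 79.6 in MEF2-VP16-ER neurons, against 155, 137 and 96.4 in Control neurons (-0.28, limma adjusted p = 0.198). C1qb had 144, 141 and 119, against 211, 162 and 140.4 in Control neurons (-0.30). Replicate 3 was lowest for both constructs, and the groups overlapped for C1qc and C1qb. The protease gene Ctss was at -0.28 and the signalling adaptor gene Tyrobp at -0.25. The summed level of the 18 markers was 2702, 2473 and 2217 with MEF2-VP16-ER, against 3072, 2759 and 2455 with Control, lower in every pair. At 1 h and 2.5 h the median was -0.013 and -0.010. Most of these probe sets are dim, with mean intensities of 31.3 to 267 with MEF2-VP16-ER and 34.8 to 293 with Control, and dim probe sets were shifted down at 0 h in general; the median was -0.12 after quantile normalization too. Fewer cells of a type and less RNA per cell cannot be told apart in such bulk samples.

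Stress and metabolic lists showed positive medians that rested on different pairs. All 17 genes of cholesterol synthesis and its SREBP regulators were above 0, with a median of 0.20 that was 0.12 after quantile normalization and ran between 0.071 and 0.27 over the alternatives, and 6 were higher at unadjusted p under 0.05, while limma called 0. The pair medians were 0.13, 0.45 and 0.055, so that replicate 2 carried most of the shift. Stard4, a cholesterol carrier, had 230.3, 386 and 476 in MEF2-VP16-ER neurons, against 167, 217 and 412 in Control neurons (0.47, limma adjusted p = 0.181), and the mevalonate pathway gene Mvd had 694, 1542 and 1509, against 625, 827 and 1418 in Control neurons (0.37). Both overlapped, and the differences between replicates were as large as that between constructs. Of 19 heat shock and unfolded protein genes 17 were above 0 (median 0.16, but 0.088 after quantile normalization and 0.021 to 0.23 over the alternatives). The pair medians were 0.039, 0.066 and 0.37, so that here replicate 3 carried the shift. At unadjusted p under 0.05, 3 were higher, where 7.82% of all probe sets were. The cholesterol and heat shock lists are bright, with median levels of 11.4 and 11.1 log2 units. Both levels lie in the brightest of the 10 groups above, where 526 of 3105 probe sets were higher. Asns, which makes asparagine, had 3502, 3468 and 3296 in MEF2-VP16-ER neurons, against 3409, 3169 and 2265 in Control neurons (0.24), and the stress kinase-like gene Trib3 had 1002, 1074 and 1288, against 1089, 988 and 599 in Control neurons (0.36); Control replicate 3 was the low array for both.

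Of 40 oxidative phosphorylation genes 37 were above 0, with a median of 0.049 that was -0.025 under quantile normalization and -0.032 under cyclic loess, so its direction depends on the scaling. The p53 targets had a median of 0.11 (10 of 12 above 0), the cell death genes 0.053 (10 of 12), the interferon genes 0.010 (14 of 24) and the NF-kappaB genes -0.026 (10 of 21), with limma calling 0 in each. No list of these had 1 sign in all pairs. The pair medians were -0.017, 0.021 and 0.12 for p53 targets and -0.030, 0.096 and 0.091 for cell death genes. They were 0.058, 0.0060 and -0.031 for interferon genes and -0.052, 0.015 and -0.052 for NF-kappaB genes. At unadjusted p under 0.05 there were 0, 0, 1 and 2 higher and 0, 0, 2 and 3 lower in these lists.

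**Figure D4:**
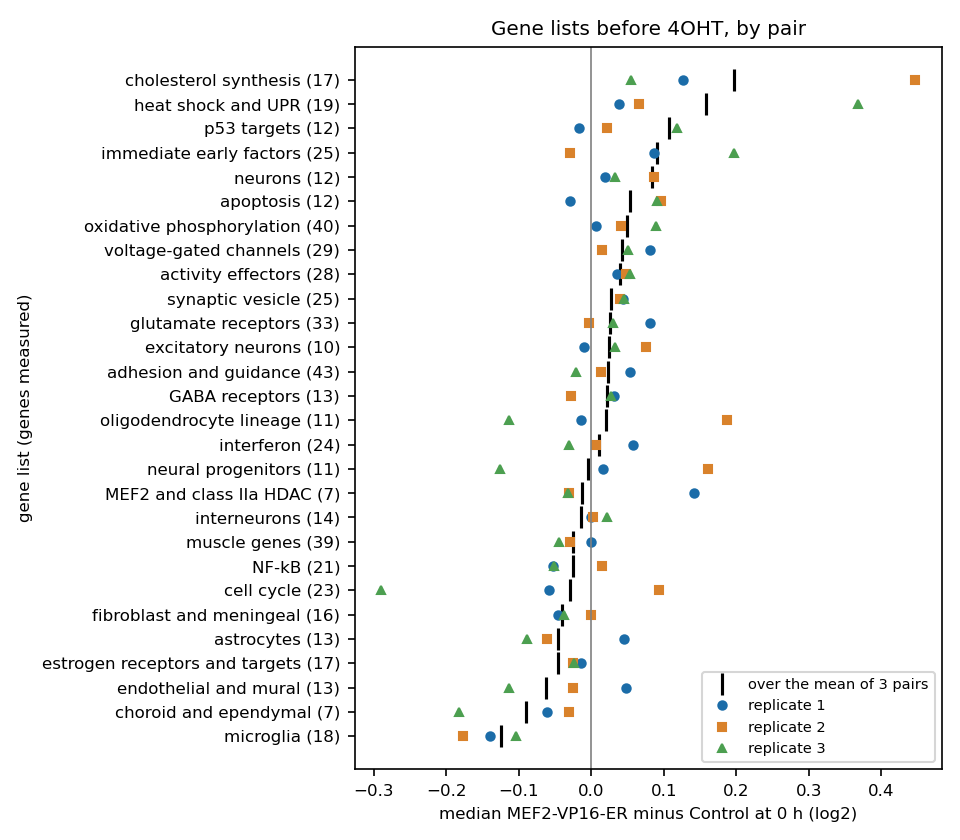
Median MEF2-VP16-ER minus Control at 0 h (x axis, log2 units) over each of 28 gene lists (y axis, genes measured in brackets); the upright mark is the median over the means of 3 pairs and points are the median in each pair. Cholesterol synthesis (0.20) and heat shock genes (0.16) are highest but spread widely over the pairs, while microglia markers (-0.12) are lowest with all pairs on 1 side.

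Some genes differed far more between the replicate cultures than between constructs. Over the 6 arrays, replicate number held 61.7% of the sum of squares with 2 of 5 degrees of freedom, construct 20.5% with 1 and the rest 17.8% with 2, which is 30.8%, 20.5% and 8.91% for each degree of freedom. The range over the 3 replicates passed 1 log2 unit in 141 probe sets, while the construct difference did so in 0. These counts are not on like measures. The range is the largest minus the smallest of 3 means of 2 arrays, and the construct difference lies between 2 means of 3 arrays. The genes named here for it were chosen after their values were seen. Mgp, a matrix protein of mesenchymal cells, had 3573, 531 and 235 in MEF2-VP16-ER neurons, against 3184, 1433 and 236 in Control neurons, a range of 3.75 log2 units over replicates. Gpnmb, a glycoprotein of phagocytic and pigment cells, had 8870.4, 3129 and 1439.9, against 7178, 4541 and 321 in Control neurons, and the immediate early gene Fos had 1628, 834 and 539, against 1502, 818 and 186 in Control neurons. All 3 were highest in replicate 1 and lowest in replicate 3 with either construct.

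Genes of dividing and oligodendrocyte-lineage cells ran the other way, highest in replicate 3. Nkx2-2, a transcription factor of that lineage, had 108, 227 and 665 in MEF2-VP16-ER neurons, against 163, 92.1 and 1170.4 in Control neurons. Pdgfra, the growth factor receptor of its precursors, had 1369, 3522 and 4249, against 1868, 1706 and 6170.2 in Control neurons, and the proliferation marker Mki67 had 125, 194 and 411, against 174, 130.3 and 625 in Control neurons. Of the 28 lists, those that varied most over replicates were cholesterol synthesis (-0.39, 0.023 and 0.40 about the mean in replicates 1 to 3), cell cycle (-0.19, -0.14 and 0.33), immediate early factors (0.21, 0.037 and -0.24) and the oligodendrocyte lineage (-0.12, -0.12 and 0.28).

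Some of these genes also gave opposite construct differences in different pairs, so that their mean describes no pair. Gpnmb was at 0.30, -0.54 and 2.11 in the 3 pairs, Ttr, the transthyretin of choroid plexus, at 0.049, 1.79 and -0.23, Nkx2-2 at -0.53, 1.17 and -0.80 and Pdgfra at -0.44, 1.04 and -0.54. The stress factor genes Atf3 (0.16, -0.24 and 1.502) and Ddit3 (0.00023, -0.62 and 1.02) were positive chiefly in pair 3. For Ttr the 1 array that stood apart was MEF2-VP16-ER replicate 2, with 360.1, 1792 and 313 over the 3 MEF2-VP16-ER arrays, against 348, 508 and 369 over the Control arrays. Limma called none of these genes at 0 h (adjusted p = 0.382 for Gpnmb, 0.546 for Ttr and 0.952 for Nkx2-2).

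**Figure D5:**
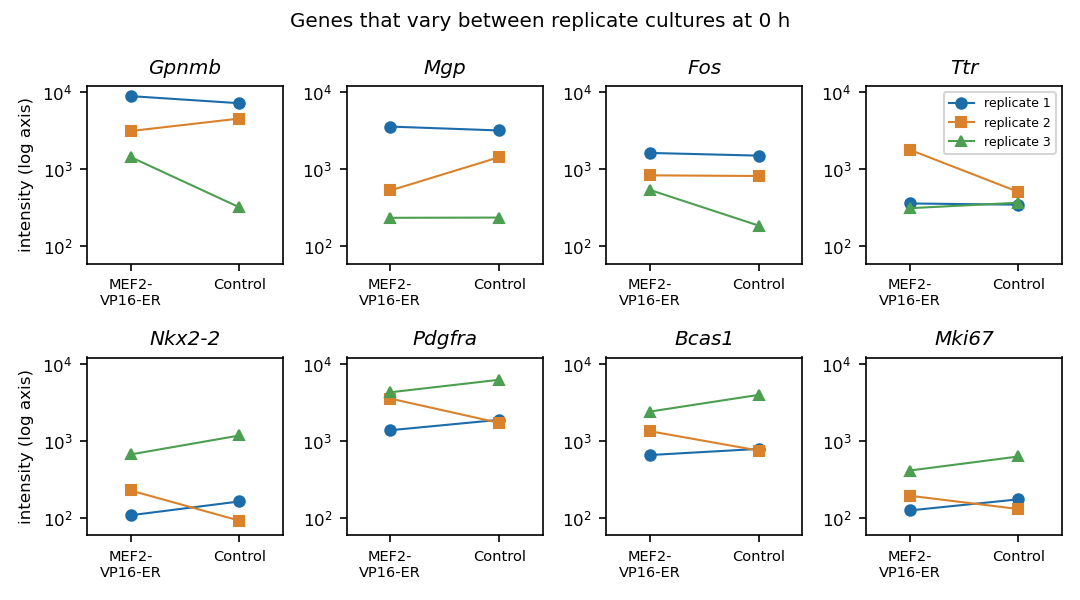
Intensity (y axis, log scale) of 8 genes that vary between replicates, chosen after their values were seen from those with the widest range over replicates or over pairs, with MEF2-VP16-ER left and Control right at 0 h; a line joins the arrays of 1 replicate number. Mgp, Gpnmb and Fos are highest in replicate 1 and Nkx2-2, Pdgfra, Bcas1 and Mki67 in replicate 3, with gaps between lines that exceed the slopes in most panels.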

How the data were processed

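The authors deposited 1 intensity per probe set and array on a linear scale; how they were normalized is not given in the sources used. Intensities were used as deposited. Of 31099 probe sets 57 controls were left out and 31042 fitted without a filter; 20826 carried 1 gene symbol, 436 several and 9780 none.

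All 18 arrays entered 1 limma model (3.58.1, R 4.3.3) of log2(intensity + 16), with 6 group means and replicate number as a block. The pairing follows the replicate numbers. Residuals of the same-numbered arrays at 0 h correlated at 0.62, 0.28 and 0.68. Those of MEF2-VP16-ER replicate 1 and Control replicate 2 also correlated at 0.28, so the residuals do not single out the partner of Control replicate 2. The other differently numbered arrays correlated at -0.62 to -0.0040. The labels call the replicates biological. Alternatives varied scaling, pseudocount (1, 64), filter, model and arrays. Steps were tested on simulated data.

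The comparison, the 28 gene lists (607 entries, 554 measured, 1 probe set a gene by highest mean) and the tests were chosen with earlier results of these data known. Named by rule were called genes, made up to 10 in each direction by p with 1 sign in all pairs, up to 5 members of a list, the 10 largest rises under ligand and 11 genes always. Figures used Python 3.11.15 and matplotlib 3.10.9.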

Additional observations from a re-analysis of the deposited data

Results flagged for a closer look

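Differences between times in the construct effect were tested within the same limma fit, as the construct difference at 2.5 h or 1 h of 4OHT minus that at 0 h. The 0 h arrays enter these values. The changes past limma's adjusted threshold among the named genes are given as values only, in log2 units. From 0 h to 2.5 h the construct difference grew by 0.49 for Kitlg, 2.39 for Col10a1, 2.29 for Pwwp3b, 1.99 for Ptpn21, 2.13 for Fgl2, 1.23 for Man1a1, 1.19 for Mitf, 1.71 for Opn3, 2.40 for Hs3st1, 1.505 for Hspb1 and 1.25 for Synpo2. It grew by 0.49 for Mef2a, 1.11 for Nr4a1, 0.63 for Nr4a3, 1.00 for Nr4a2, 0.89 for Klf6, 1.63 for Bdnf, 2.07 for Rgs2 and 1.75 for Bambi. Among ion channels, receptors and other induced genes it grew by 1.42 for Kcna4, 0.51 for Kcnv1, 0.89 for Rapgef5, 0.97 for Npy1r, 0.53 for Epha3, 0.47 for Plpp7, 0.51 for Fabp3 and 0.49 for Uty. It was negative for Nptx1 (-0.50), Sema4a (-0.43) and Egr1 (-0.80). From 0 h to 1 h it grew by 1.16 for Hs3st1, 1.26 for Bambi and 0.99 for Klf6.

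For a few markers and lists every pair had one sign at 0 h and the opposite sign later, where the difference between times did not pass limma's threshold for the genes and was not tested for the lists. At 2.5 h Vim was at 0.090, Slc1a2 at 0.23, Dlx1 at -0.33 and Mbp at -0.13, each with the other sign at 0 h. At 1 h the list of interneuron markers had a median of -0.097, heat shock genes one of -0.058 and synaptic vesicle genes one of -0.037, over the means of 3 pairs. The medians within each pair were all negative then and all positive at 0 h, although for interneuron markers those at 0 h were near 0 and the median over means was -0.015.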

How the results depend on the processing

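The number of probe sets called at 0 h, 1 in the fit reported, was 0 after quantile normalization, after cyclic loess (an alternative chosen after seeing the data), with only the 6 arrays at 0 h and with no replicate block. It was 2 with a pseudocount of 64, 3 above the median level, 7 with 1 probe set per gene and 3 with eBayes trend and robust. The number called at 0 h and in the same direction at 2.5 h, 1 in the fit reported, was 0 after quantile normalization, after cyclic loess and with no replicate block, 2 with a pseudocount of 64, 3 above the median level, 4 with 1 probe set per gene and 3 with trend and robust. Without a replicate or an array both counts ran between 0 and 2. Adcy8 and Cbln2 passed above the median level (adjusted p = 0.0442 for both). With 1 probe set per gene Rapgef4, Adcy8, Robo2, Cbln1, Cbln2 and RGD1562890 passed beside Kitlg. The Kitlg call was kept in 8 of 19 alternatives and the difference ran between 0.33 and 0.43. Its limma adjusted p was 0.122 after quantile normalization, 0.0912 with the 6 arrays and 0.108, 0.478 and 0.730 without replicate 1, 2 or 3.

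The median before ligand of the probe sets risen under it was 0.058 after quantile normalization, 0.057 after cyclic loess and 0.11 with the probe sets higher at 2.5 h in their place, and 0.068 with those chosen from the 12 arrays with ligand alone, both choices made after seeing the data. The choice at 2.5 h rests on the construct difference itself. A probe set higher with MEF2-VP16-ER at every time would enter it and also be above 0 before ligand, so that median does not separate a response to ligand from a standing difference. Without a replicate or an array the median of the risen probe sets ran between 0.060 and 0.13, and it was above 0 in 18 of 18 fits that gave one. The list medians above 0, 16 of 28, were 9 under quantile normalization and under cyclic loess. The share of positive differences among probe sets with unadjusted p under 0.05 was 53.8%, but 43.3% after quantile normalization, 81.0% above the median level and 39.5% with no replicate block. With no replicate block 1081 were higher and 1655 lower. No result changed sign while called. The normalization behind the deposited values is unknown, and dim probe sets near background limit what can be read at the low end.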

Other observations

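Genes of excitability and of synapses, from lists written with earlier results known, gave values before ligand that limma did not call. Of 29 voltage-gated channel genes 22 were above 0 (median 0.043), and 5 were higher and 0 lower at unadjusted p under 0.05, where 7.82% and 6.72% of all probe sets were. By their brightest probe set, as in the lists, 1309 of 14217 genes were higher and 769 lower. In a fit of only the probe sets above the median level, where 23 of the 29 lay, 11.6% were higher and 2.73% lower. Kcna4, a potassium channel of axons, had 623, 646 and 517 in MEF2-VP16-ER neurons, against 459, 580.4 and 398 in Control neurons (0.31, limma adjusted p = 0.179), and the groups overlapped. The sodium channel gene Scn1a was at 0.28, the calcium channel subunit gene Cacnb4 at 0.29 and the potassium channel gene Kcnq5 at 0.21, each positive in all pairs. Quantile normalization lowered the median of the list to 0.0064.

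Of 43 adhesion and guidance genes 24 were above 0 (median 0.023, but -0.028 after quantile normalization). At unadjusted p under 0.05, 1309 of 14217 genes by their brightest probe set were higher and 769 lower. In a fit of only the probe sets above the median level, where 36 of the 43 lay, 11.6% were higher and 2.73% lower. Of this list 5 were higher and 0 lower. Besides Robo2 they were the axonal adhesion gene Cntn1, with 415, 397 and 548 in MEF2-VP16-ER neurons, against 294, 292 and 382 in Control neurons and no overlap (0.47, limma adjusted p = 0.28), Sema4a (0.15), Pcdh8 (0.19) and Slit1 (0.19). The GABA receptor subunit gene Gabra3 had 187, 112 and 121, against 115, 99.1 and 78.1 in Control neurons (0.44), and its groups overlapped. Among glutamate receptor genes Gria4 was at -0.17 and Grin2c at -0.13. The interferon-induced gene Mx2 was at -0.29, with 50.8, 51.9 and 63.8 in MEF2-VP16-ER neurons, against 74.1, 59.4 and 81.1 in Control neurons.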
